A study of Rattus norvegicus with 325 samples.

Results

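The genes described here are the Foxo transcription factors of skeletal muscle, the ubiquitin ligases known from muscle atrophy and the glucocorticoid-responsive factor Klf15. They were taken by gene symbol from the count files. Of 8 named genes, 7 (Trim63, Fbxo32, Fbxo30, Fbxo21, Foxo1, Foxo3 and Klf15) were found on 1 line each among 17315 distinct symbols, and Fbxo40 was not analysed here. The data are RNA sequencing counts from 85 libraries of tibialis anterior, 84 of soleus, 83 of diaphragm and 73 of gastrocnemius. The donors were untreated male Sprague Dawley rats from Envigo, an outbred stock, aged 6, 9 or 12 months, 18 or 21 months, and 24 or 27 months, with 9 to 13 libraries for each muscle and age. Which libraries share an animal is not given in the labels. All animals of an age were sampled on a single day, so age and collection day cannot be told apart, and the p-values measure the spread between these libraries.

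Muscle loses protein when ubiquitin ligases mark proteins for the proteasome. Trim63 (MuRF1) is a RING-finger ligase of the sarcomere, whereas Fbxo32 (atrogin-1), Fbxo30 (MUSA1) and Fbxo21 (SMART) are F-box proteins, the substrate-binding subunits of SCF ligase complexes. Foxo1 and Foxo3 are transcription factors that insulin and Igf1 keep out of the nucleus through Akt, and they drive several of these ligase genes during fasting, disuse and denervation. Klf15 is a transcription factor induced by glucocorticoids.

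Depth ranged from 17.6 to 85.3 M counts per library. Every library held at least 506 counts of each of the 7 genes. Counting error was not separated from the spread between animals, which was an SD of only 0.05 log2 units for Foxo1 in the soleus at 12 months. Fibre and myocyte genes were detected in all 4 muscles (11 of 12 at a median above 0). Their summed level in the gastrocnemius, as CPM (counts divided by the library's total and set to a fixed sum), ran from 190000 to 210000 at 6 months and from 135000 to 190000 at 27 months, and in the tibialis anterior from 198000 to 213000 and from 123000 to 198000. The macrophage list (8 of 8 detected) ran from 123 to 192 CPM at 6 months and from 229 to 465 at 27 months in the gastrocnemius, from 58.3 to 97.7 and 136 to 321 in the tibialis anterior, from 250 to 501 and 440 to 661 in the soleus, and from 204 to 456 and 336 to 824 in the diaphragm. Satellite cell genes (5 of 5 detected) ran from 35.0 to 46.1 CPM at 6 months and from 26.8 to 107 at 27 months in the soleus. No marker gene was at 0 in every library of a group. The part of these shifts in the results below was not tested, and in bulk tissue fewer cells of a type and less RNA per cell cannot be told apart.

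Which of these genes changed with age was asked first, with every age compared with 6 months in each muscle. Genes were called by limma-voom where the change passed 1.5-fold with an adjusted p under 0.05. Fbxo30 rose in all 3 hind limb muscles and Trim63 rose at 24 months in both fast ones, whereas Fbxo32, Fbxo21, Foxo1, Foxo3 and Klf15 were called at no age in any muscle. At 27 months 1 of 7 was called in the gastrocnemius (22.8% of all genes tested), 1 of 7 in the soleus (15.0% of all genes), 1 of 7 in the tibialis anterior (27.6% of all genes) and 0 of 7 in the diaphragm (7.52% of all genes). The count at 24 months was 2 of 7 in the gastrocnemius (18.8% of all genes), 2 of 7 in the tibialis anterior (14.5%), 1 of 7 in the soleus (6.51%) and 0 of 7 in the diaphragm (2.68%). With so few genes these counts are near the background in every muscle. At 21 months 1 of 7 was called in the gastrocnemius (5.81%) and 1 of 7 in the tibialis anterior (6.47%), and at 18 months 1 of 7 in the gastrocnemius (4.32%). The other muscles had 0 of 7 at those ages, where 1.68% (diaphragm) and 2.61% (soleus) of all genes were called at 21 months and 2.25% (diaphragm), 2.84% (soleus) and 5.45% (tibialis anterior) at 18 months, and 1 to 4 of the 7 had an unadjusted p under 0.05. In the diaphragm at 27 months 5 of 7 had an unadjusted p under 0.05, and edgeR and DESeq2 also called 0 at every age.

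**Figure D1:**
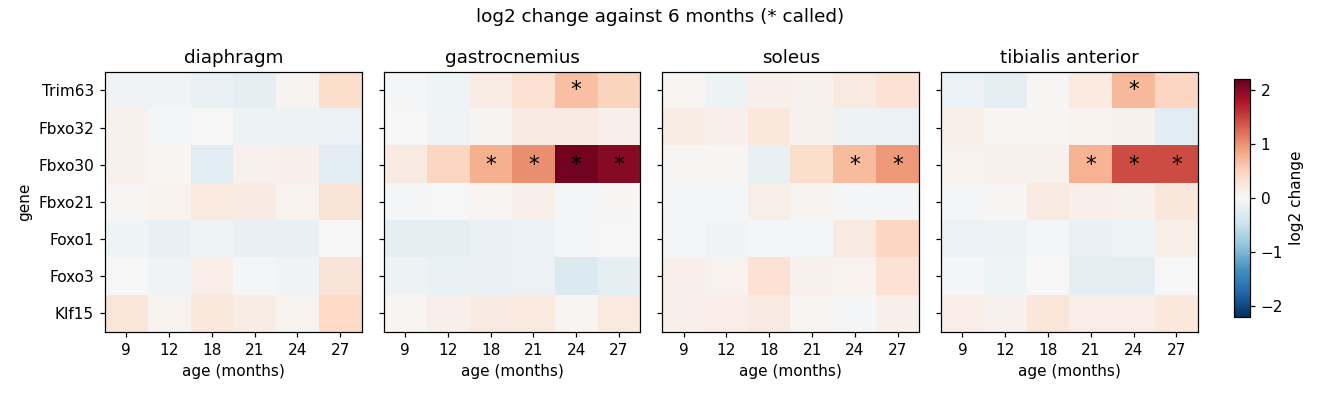
Heat map of the log2 change against 6 months of 7 genes (vertical axis) at 6 later ages (horizontal axis, months) in each muscle, red for higher and blue for lower, with a star where limma-voom called the gene. The starred cells are Fbxo30 in the 3 limb muscles and Trim63 at 24 months in the gastrocnemius and tibialis anterior.

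Fbxo30, the F-box ligase gene held down by BMP signalling in innervated muscle, showed the largest changes of the 7. In the gastrocnemius its TMM-scaled level was 16.3 CPM in the lowest, 38.3 in the median and 47.9 in the highest library at 6 months. At 24 months these were 76.4, 154 and 219 CPM, and at 27 months 81.8, 126 and 265 CPM. All 9 libraries at 24 months and all 11 at 27 months lay above the highest young one, so the groups did not overlap. The rise was already called at 18 months (log2 change 0.78, SE 0.19, limma-voom adjusted p = 0.0032) and 21 months (1.02, SE 0.20, limma-voom adjusted p = 0.00014). Bonferroni adjustment lost the call at 18 months, and with a covariate for the main axis of spread between libraries, described below, neither age was called (0.40, limma-voom adjusted p = 0.17, and 0.52, limma-voom adjusted p = 0.063). Without that covariate the change reached 2.13 (SE 0.21, 4.38-fold, limma-voom adjusted p = 6.8e-14) at 24 months and 2.01 (SE 0.20, 4.04-fold, limma-voom adjusted p = 3.7e-14) at 27 months.

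In the tibialis anterior Fbxo30 was first called at 21 months. Whether the muscles differed in their change at 18 or 21 months was not tested. Here the lowest, median and highest levels of Fbxo30 were 43.3, 49.0 and 62.0 CPM at 6 months, and the medians at 9, 12 and 18 months stayed between 54.0 and 55.7 CPM. At 21 months 11 of 13 libraries lay above the highest young library, and at 24 and 27 months 12 of 12 did. The range was 101 to 248 CPM at 24 months and 67.2 to 241 CPM at 27 months, without overlap with 6 months. The log2 change was 0.77 (SE 0.13, limma-voom adjusted p = 7e-06) at 21 months, 1.43 (SE 0.14) at 24 months and 1.44 (SE 0.14, 2.71-fold, limma-voom adjusted p = 1.3e-15) at 27 months.

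In the soleus, a slow muscle, Fbxo30 was first called at 24 months. Its lowest, median and highest levels were 57.9, 68.7 and 78.1 CPM at 6 months, 74.2, 98.9 and 188 CPM at 24 months, and 71.9, 139 and 205 CPM at 27 months. At 27 months 11 of 12 libraries exceeded the highest young one and the groups overlapped by a single library. The log2 change was 0.69 (SE 0.12, limma-voom adjusted p = 4.5e-06) at 24 months and 0.95 (SE 0.12, 1.94-fold, limma-voom adjusted p = 1.1e-10) at 27 months. The call at 24 months was lost under quality weights (0.58) and with the library axis covariate described below for Fbxo30 (0.57), both under the fold threshold.

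The diaphragm showed no called change of Fbxo30. Its lowest, median and highest levels were 57.3, 61.2 and 68.7 CPM at 6 months and 29.1, 51.0 and 103 CPM at 27 months. The old libraries spread to both sides of the young ones, with 2 above the highest and 6 below the lowest. The log2 difference was -0.24 (SE 0.12, limma-voom adjusted p = 0.095). Under quality weights it was -0.40 (limma-voom adjusted p = 4.9e-05), still below 1.5-fold. At 18 months 1 library was at 21.5 CPM while the median was 59.0 CPM.

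**Figure D2:**
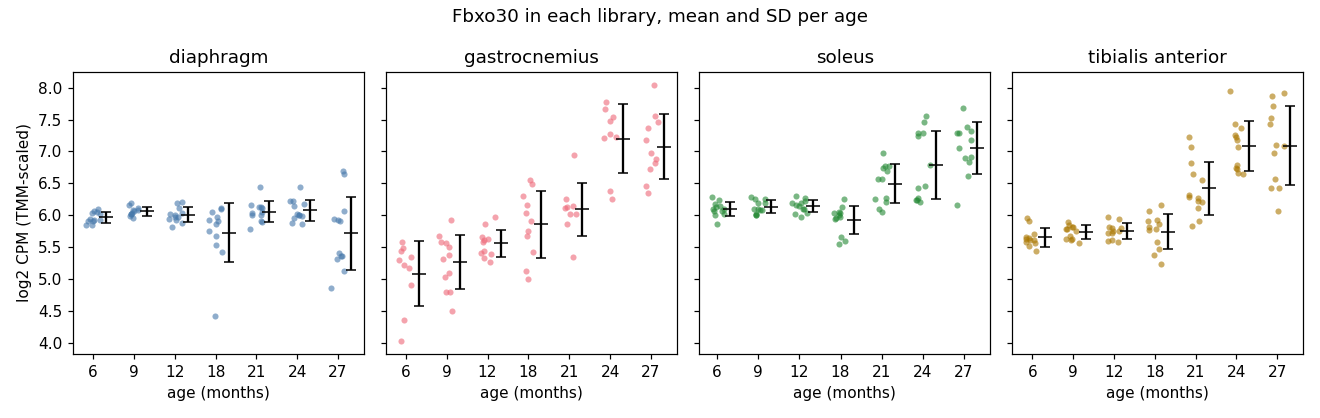
Fbxo30 in each library (coloured points) as TMM-scaled log2 CPM on the vertical axis against age in months, 1 panel a muscle, with the mean (horizontal mark) and SD (bars) of each age. Means climb from 5.08 to 7.08 in the gastrocnemius, 6.10 to 7.05 in the soleus and 5.65 to 7.09 in the tibialis anterior between 6 and 27 months, while the diaphragm goes from 5.96 to 5.71.

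Steps between neighbouring late ages were tested from 21 to 24 and from 24 to 27 months. The step from 18 to 21 months was not tested. Across it the mean log2 CPM of Fbxo30 went from 5.74 to 6.42 in the tibialis anterior and 5.93 to 6.5 in the soleus. It went from 5.85 to 6.09 in the gastrocnemius and 5.73 to 6.05 in the diaphragm. Of the tested steps, only that from 21 to 24 months held a call. Fbxo30 rose by a log2 change of 1.11 (SE 0.21, limma-voom adjusted p = 4.8e-05) in the gastrocnemius, where 6.72% of all genes were called, and 0.66 (SE 0.14, limma-voom adjusted p = 0.00024) in the tibialis anterior, where 3.52% were. It was the 1 gene of 7 called in each. With the library axis covariate the gastrocnemius step was 0.33 and was not called (limma-voom adjusted p = 0.8), and Bonferroni adjustment lost the tibialis anterior call. In this step 0 of 7 were called by limma-voom, edgeR or DESeq2 in the diaphragm (0.0% of all genes) and the soleus (0.534%), with 2 and 3 at an unadjusted p under 0.05. From 24 to 27 months none of the 7 was called in any muscle by limma-voom, edgeR or DESeq2, although 0 to 6 had an unadjusted p under 0.05. Of all genes tested, 6.08% (tibialis anterior), 4.52% (soleus), 4.39% (diaphragm) and 0.624% (gastrocnemius) were called in that step. At 9 and 12 months none of the 7 was called in any muscle by these 3 tools, with 1 to 3 at an unadjusted p under 0.05. Of all genes, 0.108% (diaphragm), 0.143% (gastrocnemius), 0.123% (soleus) and 0.00851% (tibialis anterior) passed at 9 months. The same shares at 12 months were 0.532%, 0.885%, 0.353% and 0.196%.

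Fbxo30 also followed the main axis of spread between libraries of the same age. The size of its correlation with the first principal component of all genes, after removal of age means, was 0.85 in the gastrocnemius, 0.79 in the diaphragm, 0.76 in the tibialis anterior and 0.54 in the soleus, whereas for Trim63 it lay between 0.00 and 0.13. With the score of that axis, taken from gene weights of another muscle, as a covariate, the Fbxo30 change at 27 months was 1.08 (limma-voom adjusted p = 1.4e-12) in the soleus and 1.68 (limma-voom adjusted p = 3.5e-21) in the tibialis anterior. In the gastrocnemius it was 0.51 and no longer called (limma-voom adjusted p = 0.35), and at 24 months 0.86 (limma-voom adjusted p = 0.041). The mean score itself shifted with age in the gastrocnemius by 2.45 SD at 27 months, beside an SD of 0.44 within ages, so the axis and age cannot be told apart there. In the other muscles it shifted the other way at 27 months. The shift was -1.53 in the diaphragm (0.8 within ages), -0.91 in the tibialis anterior (0.75) and -0.83 in the soleus (0.71). Axis and age are thus partly mixed in the covariate values of those muscles too. In the diaphragm the covariate turned the difference to 0.25 (limma-voom adjusted p = 0.013).

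Trim63, the sarcomeric ligase, rose in the fast muscles and was highest at 24 months. In the tibialis anterior its lowest, median and highest levels were 134, 152 and 178 CPM at 6 months, 166, 249 and 344 CPM at 24 months and 140, 205 and 323 CPM at 27 months. At 24 months 11 of 12 libraries exceeded the highest young one, and at 27 months 9 of 12 did, with overlap at both ages. The log2 change was 0.72 (SE 0.10, 1.64-fold, limma-voom adjusted p = 4.8e-09) at 24 months. At 27 months the value was 0.48 (SE 0.10, limma-voom adjusted p = 1e-05), under the fold threshold, whereas with total-count scaling it was 0.81 and called.

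In the gastrocnemius the Trim63 levels were 161, 173 and 191 CPM (lowest, median, highest) at 6 months, 218, 311 and 359 CPM at 24 months and 159, 269 and 390 CPM at 27 months. All 9 libraries at 24 months lay above every young library, and 9 of 11 did at 27 months. The log2 change was 0.67 (SE 0.11, 1.60-fold, limma-voom adjusted p = 2.3e-07) at 24 months and 0.49 (SE 0.10, limma-voom adjusted p = 3.1e-05) at 27 months, the latter under 1.5-fold. With total-count scaling or quality weights the value at 27 months was 0.77 or 0.61 and was called. With the axis covariate the value at 24 months was 0.47 and was not called (limma-voom adjusted p = 0.092), whereas that of the tibialis anterior was 0.71 and was called.

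Neither the soleus nor the diaphragm reached the fold threshold for Trim63. In the soleus it ranged from 71.9 to 111 CPM at 6 months and from 66.2 to 186 CPM at 27 months, and 8 of 12 old libraries lay above the young range. The log2 difference was 0.31 (SE 0.10, limma-voom adjusted p = 0.0064). In the diaphragm the range widened from 68.9 to 111 CPM at 6 months to 78.1 to 226 CPM at 27 months, with 5 of 12 above the young range and a log2 difference of 0.38 (SE 0.11, limma-voom adjusted p = 0.0046).

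**Figure D3:**
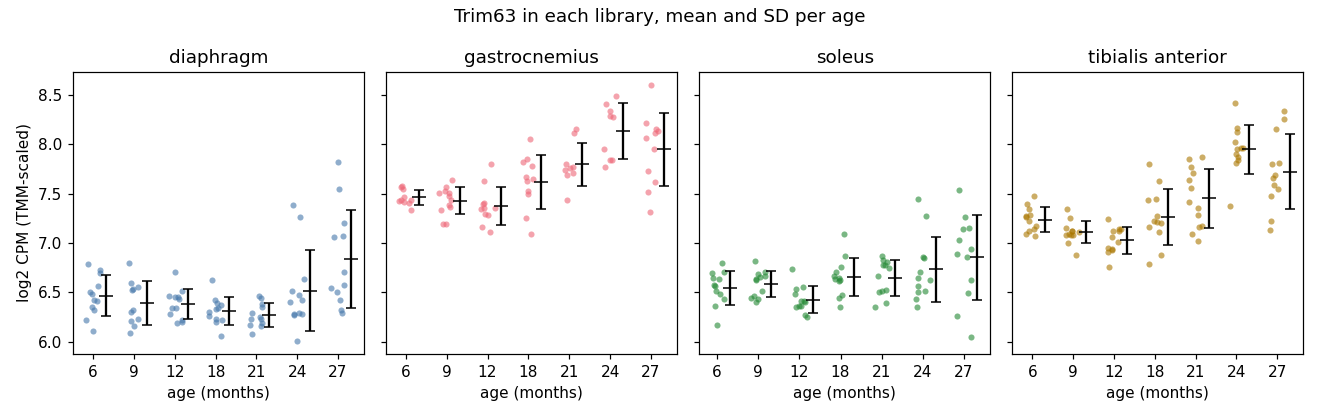
Trim63 in each library (coloured points) as TMM-scaled log2 CPM on the vertical axis against age in months, 1 panel a muscle, with the mean (horizontal mark) and SD (bars) of each age. The gastrocnemius mean goes from 7.46 at 6 months to 8.14 at 24 and 7.95 at 27 months, and the tibialis anterior mean from 7.24 to 7.95 and 7.72.

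The promoter of Trim63 is shown because it held 2 of the motifs searched side by side. Of the 8 named genes, 6 had an entry in the RefSeq promoter table (build GRCr8). Those not matched were Fbxo32 and Foxo3. The 250 bases before the start that this table uses for each gene were searched on both strands for the forkhead motif GTAAACA, the glucocorticoid receptor half-site AGAACA and the E-boxes CAGCTG and CACGTG. These motifs were chosen with results of these data known. Below are the bases of Trim63 up to its outermost annotated transcript start, at GRCr8 chr5:151816986-151817208 on the plus strand, with the adjoining half-site and forkhead motif in capitals, both read on the minus strand.
Trim63: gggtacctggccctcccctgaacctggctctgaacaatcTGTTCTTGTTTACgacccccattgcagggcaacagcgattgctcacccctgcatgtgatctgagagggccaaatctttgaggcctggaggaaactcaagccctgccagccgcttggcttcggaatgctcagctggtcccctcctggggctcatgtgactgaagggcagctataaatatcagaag
Counted from the start in the promoter table, which lies downstream of the last base printed, the forkhead motif was at 205 to 199 bases before it, the half-site at 211 to 206 and CAGCTG at 83 to 78. Of 27457 promoters of the same length, 3.25% held the forkhead motif, 17.1% the half-site, 11.9% CAGCTG and 5.79% CACGTG. Klf15 held CACGTG at 101 to 96 bases before its start in the table, which is downstream of its outermost annotated start, so that the motif lay inside the annotated gene. Fbxo30, Fbxo21, Fbxo40 and Foxo1 held none of the motifs searched. The matches found are letters in a window and do not show binding.

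Fbxo32, the other classical atrophy ligase gene, did not follow Trim63 with age. In the tibialis anterior its lowest, median and highest levels were 196, 253 and 285 CPM at 6 months and 117, 235 and 282 CPM at 27 months. No old library exceeded the young range and 5 of 12 lay below it. The log2 difference was -0.24 (SE 0.11, limma-voom adjusted p = 0.049), under the fold threshold, and 0.08 with total-count scaling. In the other muscles the difference at 27 months was 0.11 (gastrocnemius), -0.13 (soleus) and -0.13 (diaphragm), each with an SE between 0.08 and 0.11 and a limma-voom adjusted p of 0.19 or more.

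Fbxo21, a further F-box ligase gene, passed the adjusted p at 27 months in 2 muscles at less than 1.5-fold. In the diaphragm its range was 48.9 to 60.4 CPM at 6 months and 51.8 to 71.4 CPM at 27 months, and 11 of 12 old libraries were above the young range. The log2 difference was 0.28 (SE 0.05, limma-voom adjusted p = 4.3e-07). In the tibialis anterior it was 0.25 (SE 0.04, limma-voom adjusted p = 1.7e-07), with 10 of 12 above. Gastrocnemius and soleus gave 0.02 and -0.04 (SE 0.05 each).

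The transcription factors differed by less than 1.5-fold at every age with TMM scaling. Foxo1 in the soleus came closest, with 40.0, 42.6 and 48.7 CPM (lowest, median, highest) at 6 months and 44.2, 61.2 and 74.4 CPM at 27 months. Of the old libraries, 10 of 12 lay above the young range. The log2 difference was 0.48 (SE 0.07, 1.39-fold, limma-voom adjusted p = 1.7e-09), and with total-count scaling it was 0.62 and called. In the tibialis anterior it was 0.13 (SE 0.05), and in the diaphragm and gastrocnemius it was 0.00 (SE 0.05 and 0.06).

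Foxo3 differed in sign between muscles. In the soleus it ranged from 47.9 to 54.5 CPM at 6 months and from 55.5 to 70.3 CPM at 27 months. All 12 old libraries lay above all young ones, yet the log2 difference was 0.32 (SE 0.05, 1.25-fold, limma-voom adjusted p = 6.6e-08). In the diaphragm the value was 0.29 (SE 0.04, limma-voom adjusted p = 7.4e-08), with 10 of 12 above the young range. In the gastrocnemius it was -0.31 (SE 0.08, limma-voom adjusted p = 0.00041) at 24 months and -0.19 (SE 0.07) at 27 months, and the value at 27 months was 0.09 with total-count scaling. The tibialis anterior gave -0.22 (SE 0.06, limma-voom adjusted p = 0.0005) at 24 months and 0.01 at 27 months.

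Klf15, the glucocorticoid-induced factor, had its largest difference at 27 months in the diaphragm. Its levels were 37.1, 50.7 and 69.0 CPM (lowest, median, highest) at 6 months and 51.6, 69.3 and 82.9 CPM at 27 months, with 6 of 12 old libraries above the young range. The log2 difference was 0.44 (SE 0.07, 1.36-fold, limma-voom adjusted p = 3.8e-07). It was 0.24 (SE 0.08) in the tibialis anterior, 0.21 (SE 0.09) in the gastrocnemius and 0.12 (SE 0.07) in the soleus.

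The shape of the change over all 7 ages was described by null, linear and logistic models. Age-related genes were those with a trend by the Bayesian information criterion and a call at 1 age or more. By this rule Fbxo30 was age-related in the gastrocnemius (linear, slope 0.0997 log2 units per month), the soleus (inflection at 21.75 months) and the tibialis anterior (inflection at 21 months). Trim63 was so in the gastrocnemius (linear, 0.0321 log2 units per month) and the tibialis anterior (inflection at 21 months). The other 5 genes were not age-related in any muscle, since none was called at any age. A rising trend without a call was found for Foxo1 (soleus, tibialis anterior), Fbxo21 (diaphragm, tibialis anterior), Foxo3 (diaphragm, soleus) and Klf15 (diaphragm). Trim63 had one in the diaphragm and soleus, and Fbxo32 had a falling one in the soleus. Foxo1 in the tibialis anterior and Foxo3 and Klf15 in the diaphragm had the inflection at 27 months, the end of the fitted range. With a criterion over 10 below null, the trends of Klf15 in the diaphragm and of Foxo3, Trim63 and Fbxo32 in the soleus were lost. Trends were fitted for the members only, so no share of all genes is given.

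Levels between muscles were then compared within 1 fit of all libraries. At 6 months Trim63 had a median of 193 CPM in the gastrocnemius and 174 in the tibialis anterior against 85.3 in the soleus and 77.7 in the diaphragm. The lowest library of either fast muscle, at 179 and 154 CPM, was above the highest of the soleus (99.6) and of the diaphragm. The log2 difference to the diaphragm was 1.33 (SE 0.11, limma-voom adjusted p = 9.8e-27) for the gastrocnemius, where 37.3% of genes were called, and 1.14 (SE 0.10, limma-voom adjusted p = 8.1e-23) for the tibialis anterior (35.1%). Against the soleus they were 1.04 (SE 0.10) for the tibialis anterior (42.9% of genes called), and -1.23 (SE 0.11) for soleus minus gastrocnemius (45.4%). At 27 months all 4 of these differences were called again, between 1.20 and 1.42 in size. The gastrocnemius and the tibialis anterior, neighbours in this order, were not called apart, nor were the soleus and the diaphragm.

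Fbxo32 and Fbxo21 were called only between the tibialis anterior and the soleus, though other pairs came near the fold threshold. At 6 months Fbxo32 differed by 0.53 for tibialis anterior minus diaphragm and 0.45 for tibialis anterior minus gastrocnemius. Fbxo21 then differed by 0.50 for soleus minus gastrocnemius and 0.41 for soleus minus diaphragm. Fbxo32 was higher in the tibialis anterior, with 290 against 168 CPM in the median at 6 months and no overlap (lowest 225, highest soleus 217), a log2 difference of 0.72 (SE 0.10, limma-voom adjusted p = 5.9e-12). It was 0.61 (SE 0.10) at 27 months, where 31.7% of genes were called. Fbxo21 was lower in the tibialis anterior at 6 months, with 41.5 against 61.4 CPM in the median, no overlap and a log2 difference of -0.59 (SE 0.05, limma-voom adjusted p = 1.5e-26). At 27 months this difference was -0.30 (SE 0.05) and was not called, beside 0.43 (SE 0.05) for soleus minus gastrocnemius, also not called. Foxo3 was lower in the tibialis anterior than in the soleus at 27 months by a log2 difference of -0.79 (SE 0.06, limma-voom adjusted p = 2.2e-33).

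The order of Fbxo30 across muscles differed between young and old animals. At 6 months the gastrocnemius was lowest, with a median of 42.3 CPM against 54.6 in the diaphragm, 56.1 in the tibialis anterior and 61.8 in the soleus. Soleus minus gastrocnemius was 0.72 (SE 0.15, limma-voom adjusted p = 5.8e-06) and tibialis anterior minus gastrocnemius 0.62 (SE 0.15, limma-voom adjusted p = 0.00018, 17.3% of genes called), and the other pairs were not called. The second of these was not called by edgeR (0.55) or under quality weights (0.42), nor was the first under quality weights (0.50). At 27 months the diaphragm was lowest (46.5 CPM), and soleus (123), gastrocnemius (140) and tibialis anterior (154) were each called higher than it, by 1.29, 1.64 and 1.69 (SE 0.14 each). Those pairs called 27.9%, 32.3% and 27.4% of all genes, and the other pairs at 27 months 34.0% (soleus and gastrocnemius) and 10.4% (tibialis anterior and gastrocnemius), with Fbxo30 called in neither. The soleus and diaphragm at 6 months called 23.9%. Gastrocnemius libraries carry a separate series of running numbers in the labels, so a difference of this muscle from the others and a difference between series cannot be told apart.

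Whether the change with age itself differed between muscles was tested as an interaction. For Fbxo30 the change from 6 to 27 months exceeded that of the diaphragm by 2.21 (SE 0.21, limma-voom adjusted p = 2.1e-19) in the gastrocnemius, 1.14 (SE 0.20, limma-voom adjusted p = 4.1e-07) in the soleus and 1.64 (SE 0.20, limma-voom adjusted p = 2e-13) in the tibialis anterior. These interactions called 21.6%, 11.9% and 20.3% of all genes. The change was smaller in the soleus than in the gastrocnemius (-1.06, SE 0.21, limma-voom adjusted p = 5.7e-06, 14.5% of genes called). The remaining pairs, tibialis anterior against gastrocnemius (-0.57, SE 0.21) and soleus (0.50, SE 0.20), were not called, where 7.32% and 15.8% of genes were. The change at 27 months of the other 6 genes was called in no pair by limma-voom. Over 6 to 24 months the same test, added after seeing the data, called 11.6% of genes for gastrocnemius and diaphragm, 3.96% for soleus and diaphragm, 7.85% for tibialis anterior and diaphragm, 10.3% for soleus and gastrocnemius, 1.61% for tibialis anterior and gastrocnemius and 8.29% for tibialis anterior and soleus, and Fbxo30 was called in each but soleus and diaphragm (0.57, SE 0.20).

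Libraries of the same age were next used to ask which of these genes varied together between samples. Correlations of log2 CPM with age means removed were computed for 21 pairs in 4 muscles, 84 tests in all. Trim63 and Fbxo32 were positively related in each muscle, although Fbxo32 was called at no age. Pearson's r was 0.64 (Spearman's rho 0.61) over 73 gastrocnemius libraries, 0.53 (0.41) over 85 of the tibialis anterior, 0.50 (0.36) over 84 of the soleus and 0.41 (0.46) over 83 of the diaphragm. The permutation adjusted p for r was 0.00048, 0.00048, 0.0035 and 0.00048, and for rho 0.00084, 0.0024, 0.013 and 0.001. Raw permutation p for r was 1e-05 (the smallest that 100000 permutations give), 2e-05, 0.00058 and 2e-05, and for rho 1e-05, 0.00028, 0.003 and 4e-05. Without the 2 libraries farthest from the median of Trim63, r was 0.62, 0.48, 0.48 and 0.39. Within single ages r was positive at 6 of 7 ages in every muscle. The points share scaling and collection day.

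Fbxo32 and Klf15 were related in the diaphragm (r = 0.45, rho = 0.44, permutation p = 3e-05 and 5e-05, adjusted 0.00048 and 0.001), the soleus (r = 0.46, rho = 0.43, permutation p = 0.00026 and 0.00028, adjusted 0.0018 and 0.0024) and the gastrocnemius (r = 0.29, rho = 0.24, permutation p = 0.015 and 0.043, adjusted 0.047 and 0.097). In the tibialis anterior r was 0.22 and rho 0.30 (permutation p = 0.058 and 0.0097, adjusted 0.11 and 0.033). Without the 2 farthest libraries r was 0.43, 0.44, 0.27 and 0.34 in that order. In the gastrocnemius r hardly moved, but the relation then no longer passed (permutation adjusted p = 0.07 against 0.047 with all libraries), so it was borderline there. Fbxo30 and Foxo1 were related in the soleus at r = 0.58 (rho = 0.44, permutation p = 7e-05 and 0.00031, adjusted 0.00065 and 0.0024), with r positive at 4 of 7 ages and 0.50 without the 2 farthest libraries. Both genes followed the first component there (0.54 and 0.56). In the diaphragm their r was 0.39 and rho 0.22 (permutation adjusted p = 0.027 and 0.14), and r was 0.15 without the 2 farthest libraries. Of 21 pairs, 9 passed for r in the diaphragm, 5 in the tibialis anterior and 7 in each of the other muscles. Some of these were negative, such as Fbxo30 with Fbxo21 (r = -0.47) and with Foxo3 (r = -0.46) in the gastrocnemius. With total-count scaling those r were 0.03 and -0.10. No share of passing pairs among all genes was computed, so the counts of passing pairs describe only the members.

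**Figure D4:**
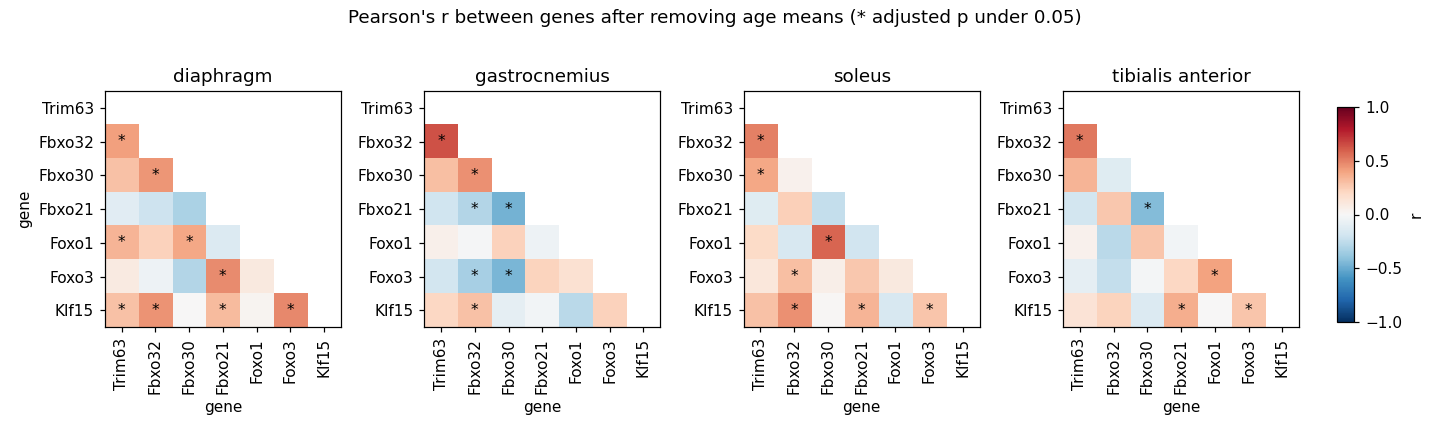
Pearson's r between each pair of the 7 genes over libraries of 1 muscle, after removal of age means, red for positive and blue for negative, with a star at a permutation adjusted p under 0.05. Trim63 with Fbxo32 is starred in every panel, with r from 0.41 to 0.64.

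The genes most like each of the 7, by the mean over muscles of the same correlation among 11517 genes over all libraries, are given as a description. For Fbxo30 they were Acsl4 (0.89), Rb1 (0.84) and Rhot1 (0.81), and for Trim63 they were Zfand2a (0.63), Ampd3 (0.60) and Sqstm1 (0.60). Fbxo32 was most like Mpp6 (0.56), Klhl38 (0.54) and Trim63 (0.52). Fbxo21 was closest to Cpt1b (0.61), Slc25a42 (0.60) and Mlycd (0.60), of which Cpt1b imports fatty acids into mitochondria and Mlycd removes its inhibitor malonyl-CoA. Foxo1 had Nxf1, Il6st (0.48 each) and Tulp4 (0.47), Foxo3 had Numa1, Abl1 and Pkd1 (0.48 each), and Klf15 had Slc43a1 (0.57), Pim3 (0.56) and Pik3ip1 (0.55).

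The rest of the pathway was counted at 27 months from lists drawn up with earlier results known. Among all genes tested, 3.27% rose and 4.25% fell in the diaphragm, 15.1% and 7.76% in the gastrocnemius, 9.21% and 5.78% in the soleus, and 17.2% and 10.4% in the tibialis anterior. Of 25 other muscle ubiquitin ligase genes, 1 rose and 2 fell in the diaphragm, 6 and 3 in the gastrocnemius, 2 and 2 in the soleus and 5 and 4 in the tibialis anterior. Fbxl22, an F-box gene of the sarcomere, rose in all 4 (log2 change 0.87, 1.56, 0.97 and 1.63 in that order). Asb2, a Cullin-5 ligase subunit, fell in all 4 (-0.84, -1.47, -1.41 and -1.49). The median change of the list lay between 0.02 and 0.18, beside medians over all genes of 0.003 to 0.042.

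None of 9 SCF core genes was called by limma-voom, edgeR or DESeq2 in any muscle, although 4 to 8 had an unadjusted p under 0.05. Of 13 ubiquitin and E2 genes, none rose, and 1 fell in each muscle but the tibialis anterior, where 3 did. Ube2b, the E2 enzyme of the N-end rule, fell in the tibialis anterior (-0.75).

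Foxo4, a further member of the family, fell in the gastrocnemius (-0.77, SE 0.06) and tibialis anterior (-0.85, SE 0.08), and its value was -0.48 in the soleus and -0.16 in the diaphragm. Of 19 genes known as Foxo targets, 5 rose and 2 fell in the tibialis anterior, 4 and 0 in the gastrocnemius, 2 and 2 in the soleus and 1 and 0 in the diaphragm. Gadd45a, which also responds to denervation and stress and is on the denervation list too, rose in all 4 muscles, with log2 changes of 4.49, 4.23, 2.82 and 1.25 in the same order. Ctsl, a lysosomal protease, rose in the gastrocnemius (1.29) and tibialis anterior (1.35). The list's median was between -0.07 and 0.11.

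Of 18 genes of the insulin, Igf1 and Akt input, none rose and 2 fell in the diaphragm, 2 and 1 in the gastrocnemius, 2 and 0 in the soleus and 2 and 1 in the tibialis anterior. Irs1, the insulin receptor substrate, fell in the tibialis anterior (-1.67), gastrocnemius (-1.03) and diaphragm (-0.88), and its value in the soleus was -0.16. Igf1 fell in the diaphragm (-0.67). Sgk1, a kinase related to Akt, rose in the 3 limb muscles (0.85 in the gastrocnemius, 0.70 in the soleus, 1.17 in the tibialis anterior). Among 13 Foxo cofactors and modifiers, 1 rose and 3 fell in the tibialis anterior, 2 rose and 2 fell in the gastrocnemius, and limma-voom, edgeR and DESeq2 called none in the soleus or diaphragm, where 10 and 8 had an unadjusted p under 0.05. Prkaa2, a catalytic AMPK subunit, fell in the tibialis anterior (-1.41) and gastrocnemius (-0.59), as did Mapk14 (-0.63 and -0.75). Under the fold threshold, Prkaa2 was -0.58 in the diaphragm and -0.39 in the soleus.

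Glucocorticoid response genes rose in number 2 of 15 in the diaphragm, 5 of 15 in the gastrocnemius, 5 of 16 in the soleus and 5 of 15 in the tibialis anterior, and 0, 2, 0 and 4 fell. Per1 and Ddit4 led in the diaphragm (1.30 and 0.61), and Angptl4 (1.92) and Sgk1 (1.17) in the tibialis anterior. Clock genes changed in both directions in every muscle, 6 of 15 higher and 4 lower in the diaphragm, 4 and 4 in the gastrocnemius, 6 and 4 in the soleus and 5 and 6 in the tibialis anterior. Ciart (3.86) and Arntl (-2.65) led in the diaphragm, and Nfil3 (-2.50) and Dbp (2.39) in the tibialis anterior. Of 12 denervation genes, 11 rose in the diaphragm and gastrocnemius and 12 in the soleus and tibialis anterior, with none lower. Chrng, the embryonic acetylcholine receptor subunit gene, rose in the tibialis anterior (7.16), gastrocnemius (5.71), soleus (3.73) and diaphragm (3.68). Such changes of a gene that is low at 6 months depend on the prior count. That clock genes differed between collection days is a measured fact beside all values above, and its part in them was not tested beyond the covariate fit.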

How the data were processed

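RNA from rat muscle was sequenced as strand-specific, ribosomal RNA-depleted libraries. The authors quantified genes with the ArrayStudio pipeline on an older rat reference with a RefSeq-based model and deposited raw counts per gene for each library, without normalization. Members and lists were chosen with earlier results of these data known, and motifs likewise.

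Genes were kept with filterByExpr by age (minimum count 10, total 15), scaled by TMM in edgeR 4.0.16 and fitted with limma-voom (limma 3.58.1, R 4.3.3) per muscle over 7 ages, or over all libraries for muscle comparisons (12784 genes). limma was used because the stated methods name it. Tests were two-sided, with Benjamini-Hochberg adjustment over all genes. Log2 CPM carried a prior count of 0.5. A trend needed a Bayesian information criterion over 6 below null, and a logistic form over 2 below linear. Relations were tested with 100000 permutations within age, and those of 7 genes gave 21 pairs, since Fbxo40 was not analysed. Named list genes were the 2 called genes with the largest change in the tibialis anterior and in the diaphragm, and likeness took 3 genes each. Some genes that this rule names are not reported here. edgeR's quasi-likelihood test, DESeq2 1.42.0, other scalings, weights, covariates, blocks and left-out libraries were alternatives. The fits were tested on simulated data. No 2 libraries of a group were alike (chi-square per gene at least 8.04 over 1735 pairs). Replicate numbers were shared across muscles. Same-numbered libraries correlated over 0.1 in at most 60 of 83 pairs (diaphragm and tibialis anterior, mean r 0.183 against -0.016 for other numbers). The best match was the own number in 14 of 72 libraries (diaphragm and gastrocnemius) to 44 of 84 (soleus and tibialis anterior). In every muscle pair the mean r of same-numbered libraries exceeded that of other numbers (0.067 to 0.183 against -0.016 to -0.005). No formal test was made of whether same-numbered libraries share an animal. They were not treated as pairs, so p-values between muscles in the main fit take them as independent.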

Additional observations from a re-analysis of the deposited data

Results flagged for a closer look

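The change of Fbxo30 from 6 to 27 months differed between muscles by the interaction test of limma-voom for gastrocnemius minus diaphragm (2.21), soleus minus diaphragm (1.14), tibialis anterior minus diaphragm (1.64) and soleus minus gastrocnemius (-1.06), all on the log2 scale. The same test at 24 months, added after seeing the data, gave 2.02 for gastrocnemius minus diaphragm, 1.32 for tibialis anterior minus diaphragm, -1.45 for soleus minus gastrocnemius, -0.70 for tibialis anterior minus gastrocnemius and 0.75 for tibialis anterior minus soleus. The change of Trim63 from 6 to 24 months was larger than in the diaphragm by 0.62 in the gastrocnemius (SE 0.16, limma-voom adjusted p = 0.00072, 11.6% of all genes called) and by 0.66 in the tibialis anterior (SE 0.15, limma-voom adjusted p = 0.00018, 7.85% of all genes called). In 21 gene and age groups of the gastrocnemius with 9 or 10 libraries, no library stood apart by Dixon's test.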

How the results depend on the processing

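Fbxo30 and Trim63 kept every call at 24 and 27 months when any 1 library was left out: Fbxo30 at 27 months ran from 1.87 to 2.08 in the gastrocnemius, 0.89 to 1.03 in the soleus and 1.37 to 1.53 in the tibialis anterior, and Trim63 at 24 months from 0.63 to 0.72 and from 0.67 to 0.77 in the fast muscles. Small values that crossed 0 when 1 library was left out were Trim63 in the diaphragm at 24 months (-0.02 to 0.11), Foxo1 in the diaphragm (-0.03 to 0.02) and gastrocnemius (-0.04 to 0.02) at 27 months and in the gastrocnemius at 24 months (-0.05 to 0.01), Fbxo21 in the gastrocnemius at 24 (-0.05 to 0.01) and 27 months (-0.01 to 0.05) and Foxo3 in the tibialis anterior at 27 months (-0.01 to 0.04). A block for replicate number within each muscle left the called members at 1 in the gastrocnemius, soleus and tibialis anterior at 27 months. Libraries of different ages come from different animals, so this block does not address animals shared between muscles. In the fit of all libraries the block joined libraries of the same age and replicate number, with a consensus correlation of 0.066. Neither block changed any other call.

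Total-count scaling shifted the median of all genes at 27 months to 0.321 in the gastrocnemius, 0.337 in the tibialis anterior, 0.164 in the soleus and 0.043 in the diaphragm, and the share of higher calls from 66.0% to 90.0%, 62.4% to 89.1%, 61.4% to 77.7% and 43.4% to 51.0%. Calls over all genes at 27 months rose from 2708 to 3632 of 11865 in the gastrocnemius and from 1825 to 2086 of 12175 in the soleus. In the tibialis anterior they rose from 3245 to 4065 of 11754. Called members became 2 at 27 months in each limb muscle and 2 from 21 to 24 months in the tibialis anterior, age-related members became 2 in the soleus, and related pairs became 10 in the tibialis anterior. Between muscles they became 2 for gastrocnemius minus diaphragm and 3 for tibialis anterior minus diaphragm at 6 months, 3 for soleus minus gastrocnemius at 27 months, 1 for the change at 27 months of tibialis anterior minus soleus, and 2 for the change at 24 months of soleus minus gastrocnemius and tibialis anterior minus soleus. Signs turned for Fbxo21 (0.25) and Foxo1 (0.24) in the gastrocnemius at 24 months, Foxo1 (0.28) and Foxo3 (0.09) there at 27 months, Fbxo21 (0.02) and Klf15 (0.03) at 24 and Fbxo21 (0.11) and Fbxo32 (0.02) at 27 months in the soleus, Foxo1 (0.10) at 24 and Fbxo32 (0.08) at 27 months in the tibialis anterior, and r of Fbxo32 and Klf15 (0.00) there. The cause was not tested.

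Quality weights gave 2 called members in the gastrocnemius at 27 months, 0 in the soleus at 24 months, 2 from 21 to 24 months in the tibialis anterior, 2 for soleus minus diaphragm and soleus minus gastrocnemius at 27 months, 1 for soleus minus gastrocnemius and 0 for tibialis anterior minus gastrocnemius at 6 months, and 2 for the change at 24 months of soleus minus gastrocnemius and tibialis anterior minus soleus; Foxo1 in the diaphragm turned to -0.02, and Fbxo21 (0.00) and Klf15 (0.04) in the soleus at 24 months. Bonferroni adjustment gave 0 in the gastrocnemius at 18 months, from 21 to 24 months in the tibialis anterior, for tibialis anterior minus gastrocnemius at 6 months and for its change and that of tibialis anterior minus soleus at 24 months, and 1 for the change at 24 months of both fast muscles against the diaphragm. edgeR gave 0 for tibialis anterior minus gastrocnemius at 6 months and 1 for the change at 24 months of soleus minus diaphragm, and Foxo1 in the gastrocnemius at 27 months was 0.00. The clock covariate turned Fbxo32 in the diaphragm to 0.00 at 24 and 0.01 at 27 months, Klf15 there at 24 months to -0.03 and Fbxo21 in the gastrocnemius at 24 months to 0.01. The library axis covariate, chosen after seeing the data, gave 0 called members in the gastrocnemius at 18, 21 and 27 months and from 21 to 24 months, 1 there at 24 months and 0 in the soleus at 24 months, and turned Fbxo30 (0.25) and Fbxo32 (0.01) in the diaphragm and Foxo3 in the tibialis anterior (-0.04) at 27 months and Fbxo21 in the gastrocnemius at 24 months (0.18). Other settings changed no count by over 1.5 times. Except for total-count scaling at 27 months, the share of all genes called under these settings is not given, so the counts describe only the members.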
